A study of Mus musculus with 18 samples.

Results

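In all, 10 genes of MHC class I antigen presentation were followed through spleen RNA libraries of mice given a high fat diet, an oligosaccharide or a transplant of gut microbes. They were taken by symbol: *H2-K1*, *H2-D1*, *B2m*, *Tap1*, *Tap2*, *Tapbp*, *Psmb8*, *Psmb9*, *Psmb10* and *Nlrc5*. All 10 members were found among the 19323 genes of the table. All 10 were among the 12968 genes that passed the filter on low values (a group mean of 1 FPKM or more, in any group). FPKM, fragments scaled by transcript length and library size, is the unit the values were read as, and the number of reads behind a value is unknown.

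The mice were of the outbred ICR stock and 10 weeks old, and each of 6 groups gave 3 spleen libraries. Controls are labelled only as control, and the AOS group received AOS (taken here to be alginate oligosaccharide, cut from a seaweed polysaccharide) at 10 mg/kg. The other 4 groups shared the high fat diet (HFD). HFD had the diet alone, HFD+AOS had AOS at 10 mg/kg as well, HFD+AOS-FMT had a transplant labelled AOS 10 mg/kg FMT, and HFD+control-FMT had a transplant labelled control FMT. FMT is taken here as faecal microbiota transplantation. The labels name no donor animals, no sex, no length of treatment and no cage or batch. Whether libraries of the same group are separate animals is not said, so p-values here measure the spread between these libraries, whatever its source. For some genes that spread was wide. The haemoglobin gene *Hbb-bs* stood at 545.91, 63.37 and 8414.06 FPKM in the AOS libraries and at 28484.8, 10064.6 and 482.53 in the HFD libraries. The source of the spread was not tested.

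MHC class I molecules show peptides from inside a cell to CD8 T cells. A heavy chain (*H2-K1* and *H2-D1* code for the classical K and D chains of the mouse) pairs with beta-2 microglobulin, the product of *B2m*. Proteasomes cut proteins into peptides, and after exposure to interferon gamma, or constantly in many leukocytes, the catalytic subunits coded by *Psmb8*, *Psmb9* and *Psmb10* replace those coded by *Psmb5*, *Psmb6* and *Psmb7*, which gives the immunoproteasome. The transporter of *Tap1* and *Tap2* moves peptides into the endoplasmic reticulum, where tapasin, coded by *Tapbp*, helps load them onto the heavy chain. *Nlrc5* codes for the transactivator that works with RFX, CREB and NF-Y factors on class I promoters. Spleen is rich in lymphocytes, which carry much class I protein, and mature red cells carry little.

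Of the members, 7 lie on chromosome 17, where *Psmb9*, *Tap1*, *Psmb8* and *Tap2* are neighbours between 34182030 and 34216321 (GRCm38). *Psmb10* and *Nlrc5* lie on chromosome 8 and *B2m* on chromosome 2. Promoter sequences from RefSeq (GRCm38.p6, 250 bases before to 50 after the annotated start) were held for 8 of the 10, all but *Tap2* and *Nlrc5*. The stretches below are shown because promoters of this family carry a shared set of short motifs. They are *H2-K1* (chr17:34000329-34000468, minus strand), *H2-D1* (chr17:35262913-35263052, plus strand), *B2m* (chr2:122147540-122147669, plus strand) and the stretch between *Psmb9* and *Tap1*, which are transcribed away from each other (chr17:34187306-34187580, plus strand, in the sense of *Tap1*). Each is written 5′ to 3′. In the first 3, capitals mark the NF-kB decamer, the interferon regulatory factor motif AANNGAAA, the X2 half-site TGACG and the Y box CCAAT. In the last, capitals mark the same X2 half-site and Y box and the GC box GGGCGG. A motif on the opposite strand appears as its reverse complement. The names label sequence matches only, and whether a match works as the named element was not tested.
H2-K1: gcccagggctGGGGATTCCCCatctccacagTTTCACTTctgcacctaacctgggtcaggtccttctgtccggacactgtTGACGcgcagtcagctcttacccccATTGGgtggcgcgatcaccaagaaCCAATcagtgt
H2-D1: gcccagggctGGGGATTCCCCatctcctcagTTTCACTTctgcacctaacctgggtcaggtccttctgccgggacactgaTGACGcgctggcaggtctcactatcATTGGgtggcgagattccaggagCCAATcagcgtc
B2m: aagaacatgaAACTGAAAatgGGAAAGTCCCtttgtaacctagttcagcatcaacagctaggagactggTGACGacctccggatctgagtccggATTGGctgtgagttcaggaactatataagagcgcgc
Tap1: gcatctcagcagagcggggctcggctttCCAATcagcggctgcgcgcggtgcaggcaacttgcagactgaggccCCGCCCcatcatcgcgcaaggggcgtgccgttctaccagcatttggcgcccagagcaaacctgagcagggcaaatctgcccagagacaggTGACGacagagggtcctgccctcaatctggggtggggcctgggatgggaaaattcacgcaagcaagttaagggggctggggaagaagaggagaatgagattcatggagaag

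The *H2-K1* and *H2-D1* stretches were identical at 111 of 140 bases (79.3%) without gaps. Both hold, in the same order, the NF-kB decamer, the reverse complement of AANNGAAA, TGACG and a pair of CCAAT matches on opposite strands. *B2m* holds the same 4 kinds of motif. Searched on both strands of the 300-base windows, the NF-kB decamer was found in 3 of the 8 member promoters and in 8.46% of 32851 mouse promoters. TGACG was found in 5 of 8 and in 20.8% of all promoters, CCAAT in 6 of 8 and 37.4%, and AANNGAAA in 3 of 8 and 23.9%. GGGCGG was found in 3 of 8 and in 35.7% of all promoters. The gamma-activated sequence TTCNNNGAA was found in *Psmb8* only and in 8.30% of all promoters. The pattern TTCNNNGAA reads the same on both strands. The decamer pattern does not, but in *H2-K1* and *H2-D1* it matched on both strands, at overlapping positions 1 base apart. No motif overlapped another kind in these windows, and the *Psmb10* window held none of the 6. The starts of *Psmb9* and *Tap1* are 225 bases apart, so their windows share 275 bases and their matches there are the same bases.

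**Figure D1:**
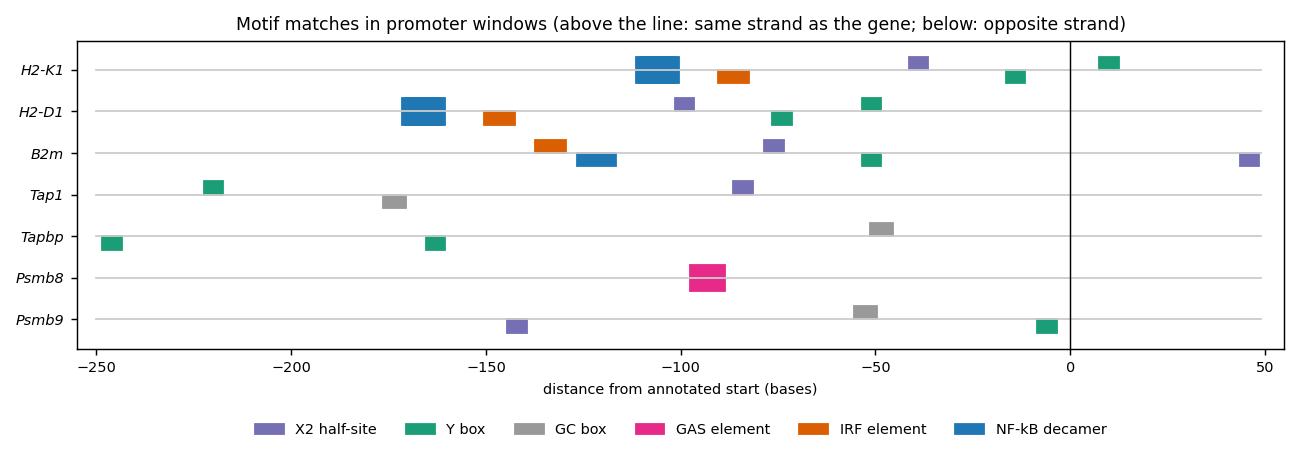
Matches to 6 short motifs in the promoter windows of 7 members, by distance in bases from the annotated start (x axis), with matches on the gene's own strand above each line and on the opposite strand below it. *H2-K1*, *H2-D1* and *B2m* share NF-kB, interferon regulatory factor, X2 and Y motifs. *Tap1* and *Psmb9* show the same 3 matches in opposite order. *Psmb10*, with 0 matches, is not drawn.

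Levels of the 10 members were lowest in the controls. The control group had the lowest mean for all 10, and HFD+AOS-FMT had the second lowest for 9 (HFD+AOS for *H2-D1*). Most tested genes also lay above control in log2 difference. The share was 68.5% for HFD, 62.4% for AOS, 60.2% for HFD+AOS, 56.4% for HFD+AOS-FMT and 65.8% for HFD+control-FMT. How many of all genes had these groups lowest and second lowest was not computed. The highest mean was that of AOS for 4 members (*H2-K1*, *Psmb8*, *Psmb9*, *Nlrc5*), of HFD for 2 (*B2m*, *Psmb10*), of HFD+AOS for 2 (*Tap1*, *Tapbp*) and of HFD+control-FMT for 2 (*H2-D1*, *Tap2*). Of 50 pairs of neighbouring groups in these orders, 9 did not overlap between their 3 and 3 libraries, and of such pairs over all 12968 tested genes 3.71% did not. Over all 18 libraries the mean levels per transcript length ran from 16.002 FPKM for *Nlrc5* to 2625 FPKM for *B2m*. *H2-D1* (1484) and *H2-K1* (924) stood below *B2m*, and the subunit genes *Psmb8* (193), *Psmb9* (142) and *Psmb10* (65.8) stood beside *Tapbp* (80.7), *Tap1* (69.5) and *Tap2* (58.6).

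**Figure D2:**
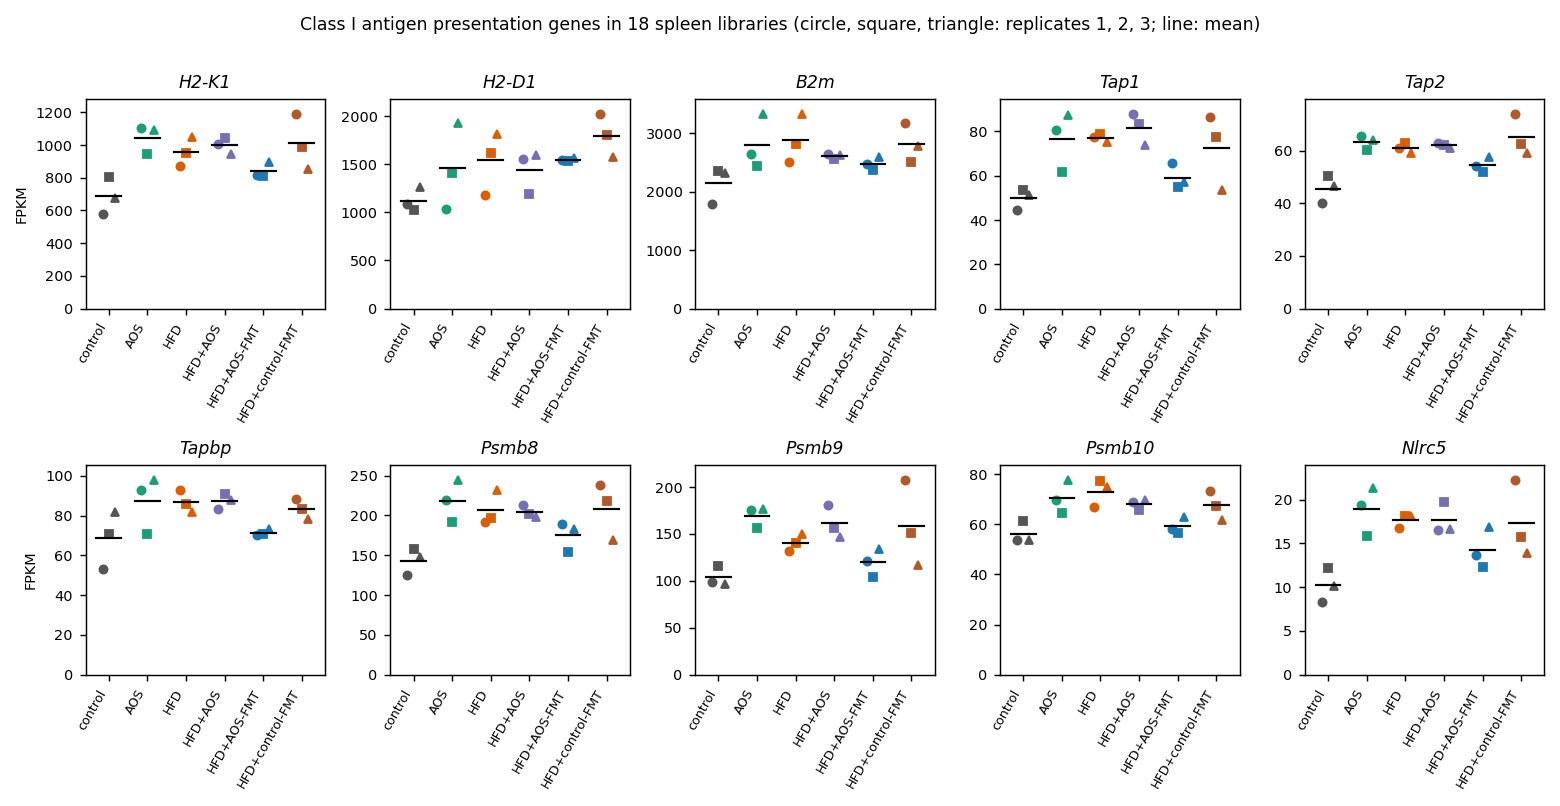
FPKM (y axis, from 0) of each member in the 18 libraries, by group. Symbols are replicates 1, 2 and 3 and lines are group means. The control mean is the lowest in every panel, from 10.2 FPKM for *Nlrc5* to 2154 FPKM for *B2m*.

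Single libraries stood at both ends. Control 1 was the lowest of 18 for 8 members and among the 3 lowest for all 10. AOS 3 was among the 3 highest for 10 members, and HFD+control-FMT 1 was the highest of 18 for 5. Control 1 also stood apart in its cell markers. Haemoglobin transcripts took 34.3% of its FPKM, against 10.8% to 28.1% in the 15 libraries that are no controls and 27.1% and 21.5% in the other controls. The summed FPKM of 7 neutrophil markers was 15176 in control 1, 4124 and 790 in the other controls and 358 to 1422 elsewhere. The mean log2 level of 6 genes of leukocytes in general (*Ptprc*, *Coro1a*, *Laptm5*, *Cd53*, *Cd48*, *Cd52*) was 8.03 in control 1, 8.24 and 8.50 in controls 2 and 3 and 8.31 to 8.75 elsewhere. The 8 T cell markers summed to 206 to 326 FPKM in controls and 319 to 489 elsewhere, and the 7 erythroid markers to 1525 to 2470 FPKM in controls and 647 to 1655 elsewhere. The 6 plasma cell markers summed to 592 to 1121 FPKM in controls, 1275 to 1595 with AOS and 1503 to 2582 on HFD+AOS, and to 716 to 1188 on HFD, 792 to 937 on HFD+AOS-FMT and 819 to 1996 on HFD+control-FMT. In whole spleen, fewer cells of a type and less RNA per cell cannot be told apart. Apart from these values and the rescaled ones below, the part of cell makeup in the differences was not tested.

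The 5 comparisons with control share the same 3 control libraries, so a low control library lowers the base of all of them. Each was tested with limma on log2(FPKM + 1), in 1 fit to 18 libraries and with Benjamini-Hochberg adjustment of p-values over all 12968 genes. A fold on this scale is slightly smaller than the ratio of FPKM for low genes. A gene is called where its adjusted p is under 0.05.

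Of the 10 members 5 rose on HFD, the transporter genes *Tap1* and *Tap2*, the immunoproteasome genes *Psmb8* and *Psmb10* and the transactivator gene *Nlrc5*. For comparison, 1.46% of all tested genes were called higher. All 3 HFD libraries lay above all 3 controls for 8 of 10 members and for 14.0% of all genes. The median difference of the members was 0.44 on the log2 scale, and that of all genes was 0.10, so that the members lay 0.34 above the median gene. HFD+AOS against control gave 4 calls, *H2-K1*, *Tap1*, *Tap2* and *Nlrc5* (1.80% of all genes called higher), and 9 members with all libraries higher (12.4% of genes). HFD+control-FMT against control gave 5 calls, *H2-K1*, *Tap2*, *Psmb8*, *Psmb9* and *Nlrc5* (3.19% of all genes), and 9 members with all libraries higher (15.5%). Member medians were 0.48 for HFD+AOS, where all genes had 0.04, and 0.52 for HFD+control-FMT, where all genes had 0.08.

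AOS alone against control gave 0 calls among the members, and 0% of all genes were called in limma. At an unadjusted p under 0.05, 9 of 10 members were higher, against 10.2% of all genes. All 3 AOS libraries lay above the controls for 8 members and for 11.7% of genes, and the members' median was 0.54 with 0.05 for all genes. The lowest adjusted p of a member was 0.0851, that of *Tap2*. HFD+AOS-FMT against control gave 0 calls as well, with 0% of all genes called. Of its members 5 were higher at an unadjusted p under 0.05 (6.51% of all genes) and 6 had all libraries above the controls (7.11%). The members' median was 0.25 and that of all genes 0.02, and the lowest adjusted p was 0.315.

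**Figure D3:**
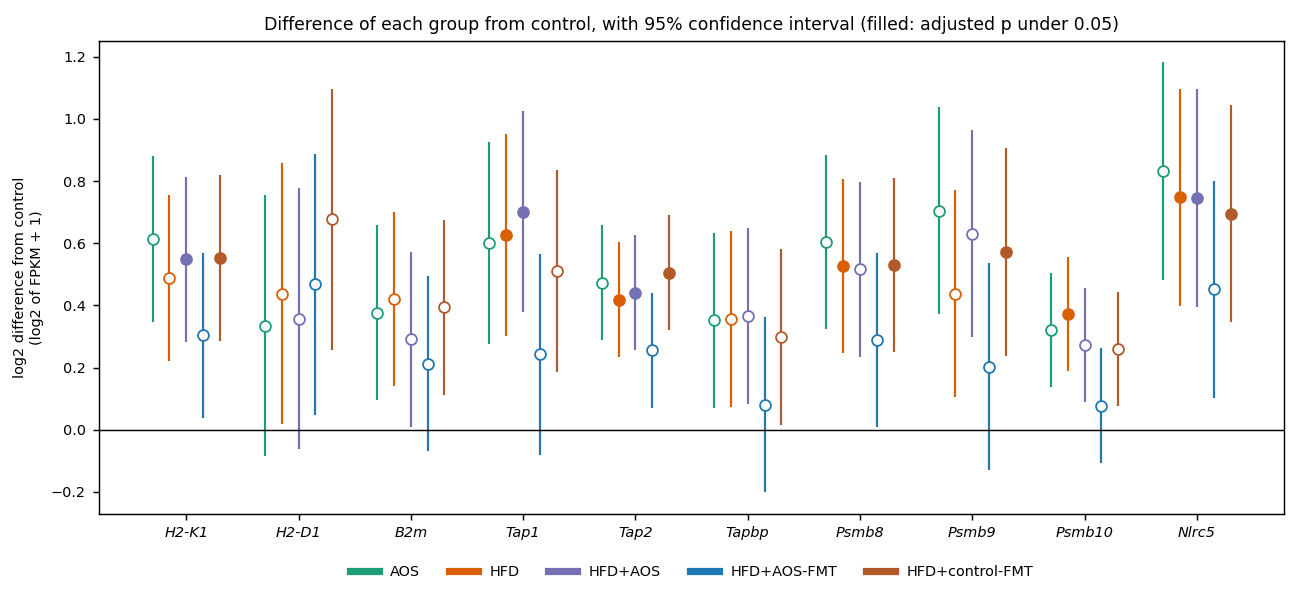
Log2 difference of each group from control (y axis, log2 of FPKM + 1) for the 10 members, with 95% confidence intervals from limma. Filled points have an adjusted p under 0.05. All 50 points lie above 0, and those of HFD+AOS-FMT are the lowest of the 5 for all members except *H2-D1*.

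These calls rest on few libraries. Without control 1, 0 members were called in any of the 5 comparisons in limma, and the medians were 0.39 for HFD, 0.44 for AOS, 0.39 for HFD+AOS, 0.17 for HFD+AOS-FMT and 0.43 for HFD+control-FMT. All 10 members then still lay above 0, except *Tapbp* in HFD+AOS-FMT at −0.09. Without control 3, calls went up to 8 for HFD, 4 for AOS, 6 for HFD+AOS and 9 for HFD+control-FMT, and without control 2 they were 1, 2, 3 and 4. Without HFD 2 or HFD 3 no member was called for HFD (0 calls), and without HFD 1 there were 7. Since the spread is pooled over all groups, libraries outside a comparison moved the counts as well. The calls for HFD were also 0 without any 1 of AOS 1, 2 and 3, HFD+AOS 2, HFD+AOS-FMT 1, 2 and 3 and HFD+control-FMT 1 and 2. The calls for HFD+AOS were 0 without HFD+AOS 1 or 2 and 2 without HFD+AOS 3. Those for HFD+control-FMT were 0 without HFD+control-FMT 1 or 2 and 3 without HFD+AOS 2 or HFD+AOS-FMT 3. For AOS there were 5 calls without AOS 2 and 3 without HFD+control-FMT 1.

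*Nlrc5*, the class I transactivator gene, differed most from control among the members in every comparison except that of HFD+AOS-FMT, where *H2-D1* did. It stood at 8.30, 12.2 and 10.1 FPKM in controls 1, 2 and 3. It stood at 19.4, 15.9 and 21.4 with AOS, at 16.7, 18.1 and 18.1 on HFD and at 16.5, 19.7 and 16.7 on HFD+AOS. No library of these 3 groups overlapped a control. HFD+AOS-FMT libraries were at 13.7, 12.3 and 16.9 FPKM, the second just above control 2, and HFD+control-FMT libraries at 22.2, 15.8 and 13.9, the widest spread. The rise was 0.75 ± 0.16 (SE) on the log2 scale on HFD (limma adjusted p = 0.0443), 0.75 on HFD+AOS (adjusted p = 0.032) and 0.70 on HFD+control-FMT (adjusted p = 0.0328). AOS gave 0.83 (adjusted p = 0.0921) and HFD+AOS-FMT gave 0.45 (adjusted p = 0.337).

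*H2-K1*, the K heavy chain gene, stood at 580, 805 and 679 FPKM in controls. It stood at 1106, 943 and 1090 with AOS, at 873, 955 and 1049 on HFD and at 1007, 1044 and 943 on HFD+AOS. HFD+AOS-FMT libraries were at 818, 813 and 897 FPKM, and HFD+control-FMT libraries at 1189, 988 and 853. All 15 libraries lay above the 3 controls, and the mean of HFD+AOS-FMT (843) was the nearest to theirs. It rose by 0.55 on HFD+AOS (limma adjusted p = 0.0366) and by 0.55 on HFD+control-FMT (adjusted p = 0.0304). On HFD the difference was 0.49 (adjusted p = 0.0502), and with AOS 0.61 (adjusted p = 0.0971).

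*H2-D1*, the D heavy chain gene, had another order of groups. Controls stood at 1082, 1019 and 1266 FPKM. The HFD+AOS-FMT libraries lay close together, at 1543, 1538 and 1560 FPKM, and HFD+control-FMT, with the highest group mean, stood at 2019, 1803 and 1570. AOS libraries spread from 1030 over 1408 to 1930, HFD libraries from 1178 over 1620 to 1818 and HFD+AOS libraries from 1190 over 1553 to 1591. AOS, HFD and HFD+AOS thus overlapped the controls, and both transplant groups did not. In limma the largest difference was 0.68 on HFD+control-FMT (adjusted p = 0.0561), and HFD+AOS-FMT gave 0.47 (adjusted p = 0.388). The ratio of *H2-K1* to *H2-D1* within a library was 0.621 ± 0.147 (SD, n = 3) in controls and overlapped the controls in all 5 other groups. It was 1.07 in AOS 1, where *H2-D1* was as low as in the controls, and at most 0.877 in every other library. Heavy chain genes are polymorphic, ICR mice are outbred, and the family holds near-identical genes, so reads of these genes could be split or lost in alignment to a single reference genome. This was not tested, and both heavy chain values are uncertain for that reason.

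*B2m*, the light chain shared by all class I molecules, stood at 1783, 2355 and 2325 FPKM in controls and at 2372 to 3326 FPKM in the other 15 libraries, all above the controls. The gap was narrow, since the lowest of these, HFD+AOS-FMT 2, was 2372 and control 2 was 2355. Its differences ran from 0.21 ± 0.13 (SE) on HFD+AOS-FMT to 0.42 ± 0.13 on HFD, and none passed limma's threshold (lowest adjusted p = 0.0733, on HFD). Set against *B2m* within the same library, the 9 other members were higher than in control in 33 of 45 differences. All libraries lay above the controls in 10 of these, each at the smallest p of the exact permutation test, 0.1 (0.554 after adjustment over the tests of this family). The 45 differences share the same control libraries and the same denominator. For them, too, no share over ratios of other gene pairs was computed.

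*Tap1*, which codes for the first chain of the peptide transporter, stood at 44.6, 53.4 and 51.4 FPKM in controls. It stood at 77.4, 79.0 and 75.3 on HFD, at 87.8, 83.3 and 73.7 on HFD+AOS and at 80.5, 61.8 and 87.5 with AOS. HFD+AOS-FMT libraries were at 65.6, 54.8 and 57.0 FPKM, just above the controls. HFD+control-FMT libraries were at 86.4, 77.7 and 53.7, the last within 1 FPKM of control 2. *Tap1* rose by 0.63 on HFD (limma adjusted p = 0.0461) and by 0.70 on HFD+AOS (adjusted p = 0.0298). On HFD+control-FMT the difference was 0.51 (adjusted p = 0.0596) and on HFD+AOS-FMT 0.24 (adjusted p = 0.586).

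*Tap2* codes for the second chain of that transporter. Controls stood at 40.03, 50.2 and 46.5 FPKM, HFD at 61.1, 62.8 and 59.1, HFD+AOS at 62.8, 62.0 and 61.1 and AOS at 65.7, 60.4 and 64.2. HFD+AOS-FMT libraries were at 54.1, 51.7 and 57.6 FPKM, between the controls and all 12 other libraries. HFD+control-FMT libraries were at 73.8, 62.4 and 59.2. *Tap2* rose by 0.42 ± 0.087 (SE) on HFD (limma adjusted p = 0.0443), by 0.44 on HFD+AOS (adjusted p = 0.0216) and by 0.50 on HFD+control-FMT (adjusted p = 0.0177). With AOS the difference was 0.47 (adjusted p = 0.0851). *Tapbp*, the tapasin gene, stood at 53.0, 70.8 and 81.8 FPKM in controls and at 70.4 to 97.6 FPKM elsewhere. Control 3 lay inside the range of 4 of the 5 other groups or above it, and HFD+AOS was the exception, at 83.2 FPKM or more. No difference of *Tapbp* passed in limma, the largest being 0.37 on HFD+AOS (adjusted p = 0.146).

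*Psmb8* codes for the immunoproteasome subunit that takes the place of the one from *Psmb5*. It stood at 125, 158 and 147 FPKM in controls, at 192, 197 and 232 on HFD, at 213, 202 and 199 on HFD+AOS and at 220, 192 and 244 with AOS. HFD+control-FMT libraries were at 238, 219 and 169 FPKM. HFD+AOS-FMT libraries were at 190, 154 and 183, and 1 of them lay below control 2, which no library of the other 4 groups did. *Psmb8* rose by 0.53 on HFD (limma adjusted p = 0.0469) and by 0.53 on HFD+control-FMT (adjusted p = 0.0368), and differed by 0.52 on HFD+AOS (adjusted p = 0.0557).

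*Psmb9*, whose subunit replaces that of *Psmb6*, stood at 98.5, 116 and 97.2 FPKM in controls. It stood at 176, 157 and 176 with AOS, at 181, 157 and 146 on HFD+AOS and at 132, 141 and 149 on HFD. HFD+control-FMT libraries spread most, at 207, 151 and 117 FPKM, and HFD+AOS-FMT libraries were at 122, 104 and 134, overlapping the controls. It rose by 0.57 on HFD+control-FMT (limma adjusted p = 0.0478), while HFD+AOS gave 0.63 (adjusted p = 0.0503) and AOS 0.70 (adjusted p = 0.102). *Psmb10*, whose subunit replaces that of *Psmb7*, stood at 53.6, 61.3 and 53.9 FPKM in controls and at 66.9, 77.4 and 75.0 on HFD. It rose by 0.37 ± 0.087 (SE) on HFD (limma adjusted p = 0.0452) and did not pass the threshold in the other 4 groups. There its libraries ran from 56.7 to 77.5 FPKM, and only those of HFD+AOS-FMT overlapped the controls.

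Ratios within a library do not depend on how libraries are scaled against each other, but differences in cell makeup remain in them. *Psmb8* to *Psmb5* was 1.37, 1.86 and 2.29 in controls, 2.47, 3.28 and 3.89 on HFD, 2.40, 2.93 and 3.03 on HFD+AOS and 2.73, 2.34 and 2.91 with AOS. It was 2.72, 2.59 and 2.55 on HFD+control-FMT and 2.13, 1.98 and 2.28 on HFD+AOS-FMT. Every library of 4 groups thus lay above the controls, and HFD+AOS-FMT lay within their range. Within every group except HFD+AOS-FMT, this ratio was lower in libraries with a larger haemoglobin share of FPKM. That share was 34.3%, 27.1% and 21.5% in controls and 26.4%, 21.5% and 24.3% in HFD+AOS-FMT, in the order of the ratios above. The part of cell makeup in the ratios was not tested. *Psmb9* to *Psmb6* averaged 1.35 ± 0.197 (SD, n = 3) in controls, 1.85 with AOS, 1.78 on HFD, 1.86 on HFD+AOS, 1.82 on HFD+control-FMT and 1.41 on HFD+AOS-FMT. *Psmb10* to *Psmb7* averaged 0.554 ± 0.0627 in controls, 0.785 ± 0.0679 on HFD and 0.582 ± 0.0351 on HFD+AOS-FMT. All 15 differences of the 3 ratios from control were above 0, and 10 had all libraries above the controls, none of them in HFD+AOS-FMT. The smallest p of a two-sided exact permutation test of 3 against 3 is 0.1, which these 10 reached (0.2 after adjustment over 32 tests), so no ratio could pass 0.05. The 15 differences share the same 3 control libraries, and no share over ratios of other gene pairs was computed.

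**Figure D4:**
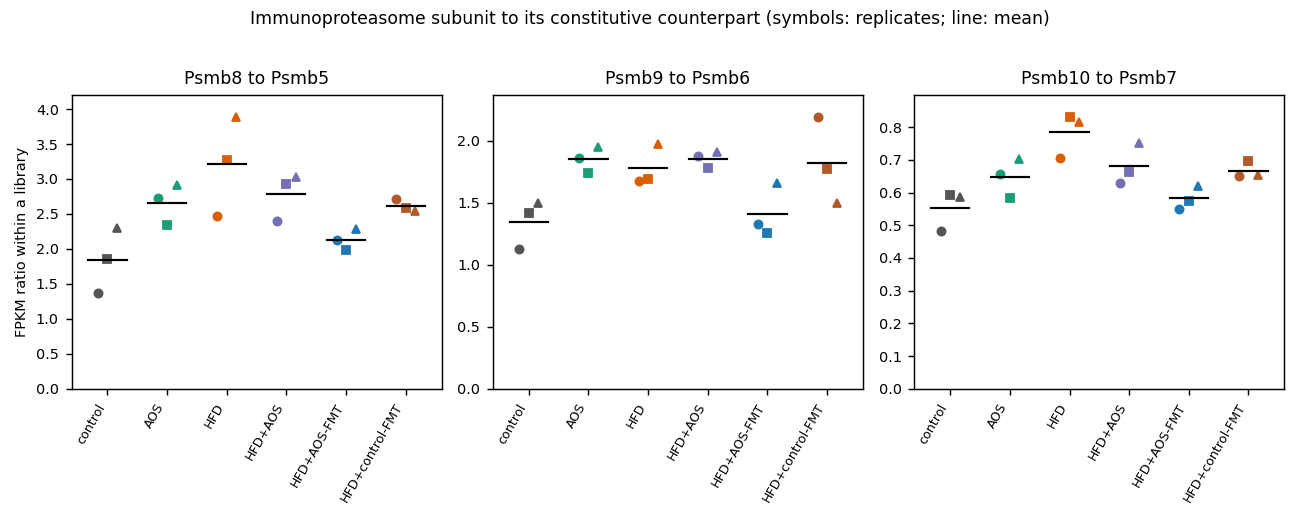
Ratio of the FPKM of each immunoproteasome subunit gene to that of the constitutive subunit gene it replaces (y axis, from 0), by group. Symbols are replicates 1, 2 and 3 and lines are means. For *Psmb8* to *Psmb5* the means run from 1.84 in controls to 3.21 on HFD, and HFD+AOS-FMT is the lowest of the 5 other groups at 2.13.

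On the values as deposited, the members' median was −0.012 for HFD+control-FMT against HFD and −0.057 for HFD+AOS against AOS. HFD+AOS against HFD gave 0 calls of 10 members (0% of all genes), with 0 at an unadjusted p under 0.05, differences from −0.13 to 0.19 and a median of 0.0037. After scaling to the 6 leukocyte genes, all 10 members lay above 0 in this comparison, from 0.15 to 0.47 with a median of 0.28 and 0.24 for all genes, and 0 were called in limma (lowest adjusted p = 0.080). HFD+control-FMT against HFD gave 0 calls (0.0154% of all genes) and 0 at an unadjusted p under 0.05, with differences from −0.12 to 0.24. HFD+AOS against AOS gave 0 calls (0% of all genes) and 0 unadjusted, with differences from −0.09 to 0.10. The groups are not shown to be alike by this. For *Nlrc5*, for example, the 95% interval of HFD+AOS against HFD ran from −0.35 to 0.35, and for *Tap2* from −0.16 to 0.21.

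HFD+AOS-FMT was lower than HFD for 9 of 10 members, with a median of −0.24 against −0.07 for all genes. Most tested genes were lower too, and 32.5% of them were higher. In limma 0 members were called (0% of all genes, lowest adjusted p of a member 0.263), and 2 were lower at an unadjusted p under 0.05, *Tap1* and *Psmb10* (9.09% of all genes). All 3 libraries lay below all HFD libraries for 5 members, *Tap1*, *Tap2*, *Tapbp*, *Psmb8* and *Psmb10* (16.7% of all genes). *Psmb10* differed by −0.30 (95% interval −0.48 to −0.11) and *Tap1* by −0.38 (−0.71 to −0.06). After leukocyte scaling the median was −0.0065, with 4 of 10 members above 0 and 0.16 for all genes. HFD+AOS-FMT against HFD+control-FMT had a median of −0.24 for the members and −0.05 for all genes (after leukocyte scaling −0.09 and 0.10). This comparison gave 10 of 10 members lower (again 10 after leukocyte scaling), and 34.7% of all genes were higher as deposited. It gave 0 calls in limma (0.00771% of all genes, lowest adjusted p of a member 0.362), 2 members lower at an unadjusted p under 0.05, *Tap2* and *Psmb9* (6.60% of all genes), and 3 with all libraries lower (15.6%). Neither transplant is thus shown to differ from the other or from the diet alone for any member. HFD+AOS-FMT libraries also had 21.5% to 26.4% haemoglobin FPKM, HFD+control-FMT libraries 15.4% to 18.8% and HFD libraries 10.8% to 27.4%, and the part of this in the differences was not tested.

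The effect of AOS was also compared between the diets, as the difference of HFD+AOS from HFD minus that of AOS from control. All 10 members were below 0, from −0.83 for *Nlrc5* to −0.34 for *Tapbp*, with a median of −0.51 and −0.09 for all genes. Most tested genes were below 0 too, and 34.8% of them were above it. No member passed in limma (0 calls, 0% of all genes, lowest adjusted p 0.221), and 8 were negative at an unadjusted p under 0.05 (10.1% of all genes). The difference thus had the same sign in every member but was not past the threshold. After leukocyte scaling the median was −0.08 and that of all genes 0.34, and 3 members lay above 0. The control libraries enter this value as well. The F test over the 6 groups called 0 members (0.116% of all genes), with 8 at an unadjusted p under 0.05 (22.0% of all genes) and *Tap2* lowest at adjusted p = 0.0615.

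The values moved with the scaling of the libraries. After scaling to the 6 leukocyte genes, the members' median difference from control was 0.05 for HFD (all genes −0.29), 0.38 for AOS (−0.11), 0.36 for HFD+AOS (−0.07), 0.09 for HFD+AOS-FMT (−0.14) and 0.21 for HFD+control-FMT (−0.23). With this scaling 0 members were called in any of the 5 by limma, and 8 of 10 lay above 0 for HFD and for both transplant groups. *Tapbp* and *Psmb10* lay below 0 there, at −0.036 and −0.019 for HFD. With haemoglobin removed from the totals the medians were 0.40, 0.48, 0.46, 0.23 and 0.47 in the same order, and 0, 0, 6, 0 and 4 members were called. Scaling by median ratios gave medians of 0.32, 0.48, 0.41, 0.21 and 0.43 and 0, 0, 1, 0 and 1 calls, with all 10 members above 0 in all 5 comparisons.

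**Figure D5:**
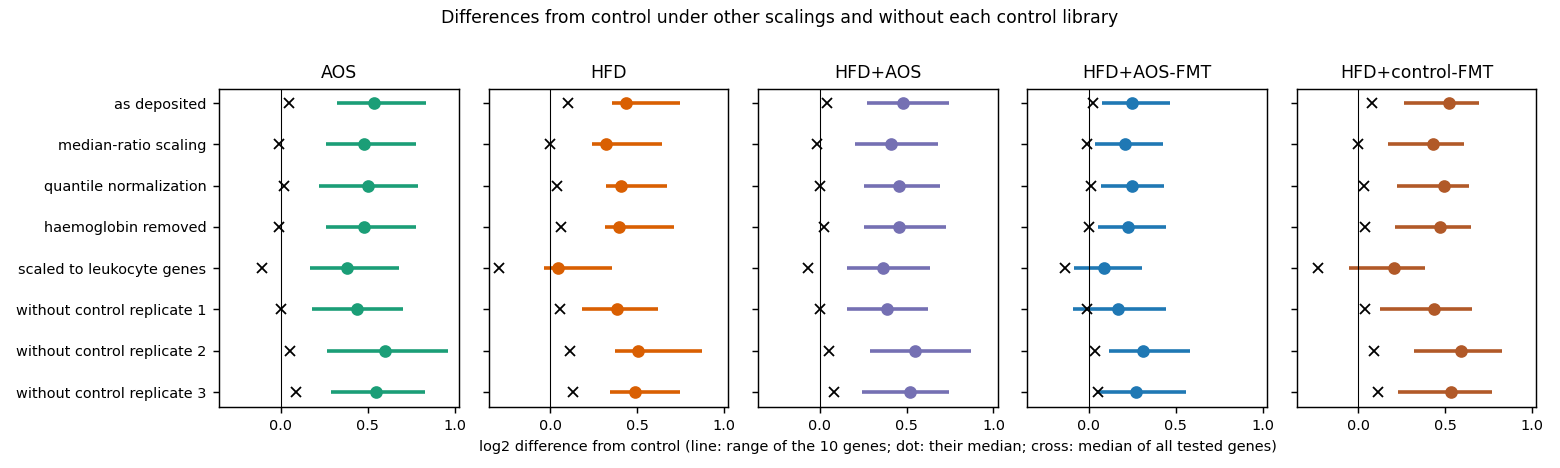
Log2 difference from control (x axis) of the 10 members under 5 scalings and without each control library. Lines span the members, dots are their medians and crosses are medians of all tested genes. The dots stay to the right of the crosses throughout, and the line crosses 0 after scaling to leukocyte genes for HFD, HFD+AOS-FMT and HFD+control-FMT, and without control 1 for HFD+AOS-FMT.

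Other genes of the pathway were read from lists chosen by function. Of all tested genes, 28.6% had an unadjusted p under 0.05 in either direction for HFD against control, 15.4% for AOS, 18.9% for HFD+AOS, 11.6% for HFD+AOS-FMT and 26.9% for HFD+control-FMT, and the unadjusted counts of the lists stand beside these shares. Called higher in limma were 1.46% of all genes for HFD, 1.80% for HFD+AOS, 3.19% for HFD+control-FMT and 0% for AOS and HFD+AOS-FMT. For HFD+control-FMT 665 of 12968 genes were called in either direction, 414 of them higher. The 3 constitutive catalytic subunits had 0 calls in limma in all 5 comparisons with control, and at an unadjusted p under 0.05 there was 1 with AOS and 0 in the other 4. *Psmb5* stood at 80.2 ± 14.1 FPKM in controls and 65.8 ± 10.1 on HFD (mean ± SD, n = 3; adjusted p = 0.22), and *Psmb7* at 102 ± 9.82 and 93.3 ± 1.35. The 11 other subunits of the 20S core had 0 calls in limma too, with 4 at an unadjusted p under 0.05 with AOS and 0 in the other 4 comparisons, and on HFD their median was −0.01. *Psma7* and *Psma4*, alpha-ring genes, differed from control on HFD by −0.04 and 0.09. The constitutive core thus had no member past the threshold where immunoproteasome genes did, and the difference between these sets was compared only through the ratios above.

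Among 6 genes of peptide loading and trimming, 3 had an unadjusted p under 0.05 on HFD. There was 1 each on HFD+AOS, HFD+control-FMT and AOS and 0 on HFD+AOS-FMT. AOS and HFD+AOS-FMT had 0 calls in limma. *Tapbpl*, coding for the tapasin relative that edits class I peptides, was the only gene of this list called. It stood at 11.9, 16.1 and 16.6 FPKM in controls, at 20.3, 22.1 and 20.7 on HFD, at 21.0, 25.5 and 21.5 on HFD+AOS and at 26.1, 21.1 and 20.2 on HFD+control-FMT. No library of these groups overlapped a control. It rose by 0.49 on HFD (limma adjusted p = 0.0466), by 0.59 on HFD+AOS (adjusted p = 0.0238) and by 0.57 on HFD+control-FMT (adjusted p = 0.0272). *Bcap31*, which codes for a protein of export from the endoplasmic reticulum, was at 117 ± 8.72 on HFD and 101 ± 4.97 FPKM in controls (adjusted p = 0.0771).

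Of 9 proteasome activators and assembly factors, 0 were called in limma on HFD, HFD+AOS, AOS or HFD+AOS-FMT (3, 5, 2 and 0 at an unadjusted p under 0.05). On HFD+control-FMT *Psme1* rose and *Psme3* fell (4 genes at an unadjusted p under 0.05). *Psme1* and *Psme2* code for the PA28 alpha and beta subunits, which cap immunoproteasomes, and *Psme3* for the nuclear PA28 gamma. *Psme1* was at 231 ± 26.9 FPKM on HFD+control-FMT and 178 ± 12.8 in controls (log2 difference 0.37, limma adjusted p = 0.049), and *Psme3* differed by −0.39 (adjusted p = 0.039). *Psme4*, coding for the activator PA200, differed by 0.15 on HFD+AOS (adjusted p = 0.205) and by −0.05 on HFD.

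Of 14 regulators of class I genes, 2 rose on HFD, *Irf1* and *Rfx5*, and 2 on HFD+control-FMT, *Irf1* and *Irf8*, while HFD+AOS, AOS and HFD+AOS-FMT had 0 calls in limma (5, 5 and 2 at an unadjusted p under 0.05). On HFD and on HFD+control-FMT, 7 each had an unadjusted p under 0.05. *Irf1*, an interferon-induced transcription factor gene, was at 42.0, 54.3 and 58.8 FPKM in controls and at 67.8, 74.3 and 72.5 on HFD. Its rise was 0.47 on HFD (limma adjusted p = 0.045) and 0.45 on HFD+control-FMT (adjusted p = 0.0341). *Rfx5*, coding for a subunit of the RFX complex, rose by 0.37 on HFD (adjusted p = 0.0452), and *Irf8* by 0.54 on HFD+control-FMT (adjusted p = 0.0308).

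The 5 genes of interferon gamma and its receptor had 0 calls in limma in all 5 comparisons with control, with 3 at an unadjusted p under 0.05 on HFD, 1 on each transplant and 0 on AOS and HFD+AOS. *Ifng* itself was low, at 0.68, 1.15 and 1.88 FPKM in controls and 0.84 to 2.26 FPKM elsewhere, so its groups overlapped. *Ifngr2*, a receptor chain, was at 50.5 ± 5.80 FPKM on HFD and 41.3 ± 4.48 in controls (adjusted p = 0.117), and the kinase gene *Jak1* at 108 ± 6.35 and 89.6 ± 20.03. MHC class II genes, which present peptides from outside the cell, had 3 calls of 10 on HFD (*H2-Ab1*, *H2-DMa*, *H2-Oa*), 2 on HFD+control-FMT (*H2-Ab1*, *H2-DMa*) and 0 on HFD+AOS, AOS and HFD+AOS-FMT in limma (1, 2 and 1 at an unadjusted p under 0.05). Unadjusted, 9 of the 10 had a p under 0.05 on HFD and 5 on HFD+control-FMT. *H2-Ab1* rose by 0.49 on HFD (adjusted p = 0.0452) and differed by 0.10 on HFD+AOS (adjusted p = 0.689). *H2-Eb1*, the E beta chain gene, was named after its values were seen. It stood at 241.55, 269.3 and 257.83 FPKM in controls and at 163.75, 43.16 and 19.82 on HFD, all lower, and at 313.73, 312.22 and 393.43 on HFD+AOS, all above both. With AOS it stood at 490.14, 441.74 and 170.22 FPKM. HFD+AOS-FMT libraries were at 46.77, 101.96 and 332.85, and HFD+control-FMT libraries at 376, 72.03 and 329.85. Low single libraries were thus not particular to HFD. Whether differences between outbred mice, or reads lost in alignment to a single reference genome, enter these values was not tested. The difference of *H2-Eb1* was −2.27 on HFD against control (limma adjusted p = 0.109) and 2.67 on HFD+AOS against HFD (adjusted p = 0.214), and neither passed. The medians of the class II list were 0.44 on HFD and 0.09 on HFD+AOS, beside 0.44 and 0.48 for the class I members.

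The genes most like the members were found by the root mean square difference between a gene's centred log2 profile over the 18 libraries and the mean profile of the members. As a description, the 10 nearest that are no members were *Psme1* (0.073), *Apobec1* (0.082), *Nmi* (0.088), *Chpf* (0.090), *Psme2* (0.093), *Ppp3cc* (0.093), *Tapbpl* (0.093), *Ctsz* (0.094), *Akr1b3* (0.097) and *Syvn1* (0.099). The median over all tested genes was 0.244. Of these, 3 (*Psme1*, *Psme2*, *Tapbpl*) stood on the pathway lists and the other 7 did not. Among the members *Psmb8*, *H2-K1* and *Tap2* were nearest to the mean profile, which they help form, and *H2-D1* was the farthest at 0.238, at rank 6004 of 12968. All points share the same libraries, and their differences in cell makeup enter every profile.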

How the data were processed

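Spleen RNA of 18 libraries (6 groups of 3) was analysed from a single table of 19326 rows. Per the submitters' processing notes, reads were aligned with Bowtie 0.12.2 to mm10. The deposited values were read as FPKM, made by the authors, from the values themselves: value times transcript length, summed per library over 18437 rows with a length, had a coefficient of variation of 0.709%, and column totals one of 7.55%. The unit is not given in the sources used here, nor are the counting program and the annotation. FPKM and RPKM cannot be separated this way, and depth is unknown. Column totals were 627914 to 831397 FPKM, and 0 pairs of libraries were identical. Columns were matched to labels by the group code and number in their headers.

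From these values, 3 rows of duplicated symbols were dropped and log2(FPKM + 1) was fitted in R 4.3.3 by limma 3.58.1, with its trend and robust options and statmod 1.5.0, over all 18 libraries, with 12 residual degrees of freedom. Genes with a group mean of at least 1 FPKM were tested. Ratios were tested with exact two-sided permutations in Python 3.11.15. The limma fit was tested on simulated data, with planted changes larger than any member difference here and noise drawn separately for each gene. The permutation tests of ratios were not tested this way. The members, gene lists, rule for named genes and tests were chosen with earlier results of these data known. Named are the members, 2 genes per pathway list with the smallest F-test p, listed genes called in a described comparison, and the 10 genes nearest to the members' profile. A gene the rule selects is not reported here. *Psmb6*, *Psme2* and *Ifng* are named besides, as a counterpart in a ratio, as a near profile and as the ligand. *H2-Eb1* is also named outside the rule, after its values were seen. Alternatives were a pseudocount of 0.1, no filter, a minimum of 5 FPKM, median-ratio, quantile, haemoglobin-free and leukocyte scaling, a fit to the compared groups alone, the replicate number as a block and leaving out each library. Replicate numbers were taken to pair libraries where the residuals of all 3 same-numbered pairs correlated above 0.1. Among the comparisons made, this held for HFD+AOS with HFD (0.24, 0.27 and 0.19) and with AOS (0.49, 0.39 and 0.32), and for no comparison with control. It also held for AOS with HFD+AOS-FMT and HFD+AOS with HFD+control-FMT, which were not compared. Correlations of libraries with different numbers were not set beside these, so the rule cannot show that the numbers stand for real pairs.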

Additional observations from a re-analysis of the deposited data

Results flagged for a closer look

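*B2m* and *Psmb10* drew notice because the effect of AOS had opposite signs without and with the diet. All 3 AOS libraries lay above the control mean, and all 3 HFD+AOS libraries lay below the HFD mean. The HFD+AOS and HFD libraries overlapped, with differences of −0.13 for *B2m* and −0.10 for *Psmb10*. *H2-D1*, *Psmb8* and *Nlrc5* also had opposite signs of the 2 differences, without all HFD+AOS libraries below the HFD mean. The difference between the 2 effects was −0.51 on the log2 scale for *B2m* (limma adjusted p = 0.246) and −0.42 for *Psmb10* (adjusted p = 0.221), so neither passed the test of that difference. The opposite signs depended on the scaling: after scaling to leukocyte genes all 10 members, these included, lay above 0 for HFD+AOS against HFD (lowest 0.15) and for AOS against control (lowest 0.17).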

How the results depend on the processing

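The counts of called members depended on the setting. For HFD against control the 5 calls became 0 with no filter, median-ratio scaling, quantile normalization, haemoglobin removed, leukocyte scaling or the compared groups alone. They ran from 0 to 8 without 1 library. For HFD+AOS against control the 4 calls became 1 with median-ratio scaling, 0 with leukocyte scaling and 0 with the compared groups alone, and ran from 0 to 6 without 1 library. For HFD+control-FMT against control the 5 calls became 3 with no filter, 1 with median-ratio scaling, 0 with leukocyte scaling and 0 with the compared groups alone, and ran from 0 to 9 without 1 library. For AOS against control the 0 calls ran from 0 to 5 without 1 library. For the F test they ran from 0 to 6 (6 without HFD+control-FMT 3). In the other comparisons 0 members were called under every alternative run. The cause of these changes in the counts was not tested.

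With the replicate number as a block, calls were 7 for HFD, 5 for HFD+AOS and 8 for HFD+control-FMT against control and 1 for the F test, and pairing was not supported there. In HFD+AOS against HFD and against AOS, where the numbers met the rule for pairing, the block left 0 calls.

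Single members were recomputed in 8 comparisons: the 5 with control, HFD+AOS-FMT against HFD and against HFD+control-FMT, and the AOS effect between diets. There, signs turned with leukocyte scaling for *Tapbp* and *Psmb10* against control (HFD −0.036 and −0.019, HFD+AOS-FMT −0.080 and −0.084, HFD+control-FMT −0.016 and −0.055), for *H2-K1* (0.046), *B2m* (0.022) and *Tap2* (0.068) in HFD+AOS-FMT against HFD, and for *H2-D1* (0.016), *Tapbp* (0.088) and *Psmb10* (0.010) in the comparison of AOS effects between diets. Leaving out 1 library turned *Tapbp* in HFD+AOS-FMT against control (−0.091 to 0.22) and *H2-D1* in HFD+AOS-FMT against HFD (−0.15 to 0.16). In the other comparisons the number of members above 0 moved: for HFD+AOS against HFD from 5 to 10 with leukocyte scaling, 4 without HFD 1 and 7 without HFD 3 or HFD+AOS 3, for HFD+control-FMT against HFD from 5 to 8 with leukocyte scaling and 1 without HFD+control-FMT 1, and for HFD+AOS against AOS from 3 to 1 without AOS 2 and 6 without AOS 3. Under settings that kept all libraries, 716 differences of those 8 comparisons kept direction and side of the threshold, 59 lost and 13 gained the call and 12 turned. Most of the 716 were not called in the main fit, so this count does not show the calls to be stable. Only the called members could lose a call, and these were 5 for HFD, 4 for HFD+AOS and 5 for HFD+control-FMT against control. Limits are the unknown depth, 3 libraries a group, control libraries that differ in cell markers and are shared by 5 comparisons, and heavy chain genes with near-identical relatives.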
